A study of Phaffia rhodozyma with 29 samples.

Results

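Among the 300 genes with the most RNA-seq counts in wild-type Xanthophyllomyces dendrorhous (also named Phaffia rhodozyma), 128 stayed close to their wild-type level in 3 strains changed in sterol regulation. They are called the window genes here. They were chosen by measured values: each count was divided by its library's total and multiplied by 1000000 (CPM), the level of a gene in a group was the mean of log2(CPM + 1) over its 3 libraries, and a gene was taken when its level in cyp61-, in the double mutant and in the tagged strain each lay within 0.6 of that in wild type (N). The 128 are 42.7% of the 300 and 1.98% of the 6469 genes counted. The other 172 of the 300 left the window in at least 1 of the 3 strains. The 12 libraries of these groups fixed the choice, so their values are given as a description. The rule did not use the 6 libraries of wild type (Ne) and sre1-.

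The study measured gene expression in cultures of strain CBS 6938, a carotenoid-producing basidiomycete yeast, and of mutants made from it. The design text states growth to the late exponential phase and 3 biological replicates for the wild type, sre1- and the tagged strains, and does not name cyp61- or the double mutant. Wild type (N) and wild type (Ne) are 2 sets of 3 libraries of the parental strain whose labels differ only by that suffix. The strain sre1- has the SRE1 gene deleted, cyp61- has an interrupted CYP61 locus, and the double mutant carries the SRE1 deletion and the CYP61 interruption together. The tagged strain carries an Sre1 protein fused to a FLAG epitope. The design text names 2 tagged strains, of which 1 is also cyp61-, and which of them gave the RNA-seq libraries is not labelled. Each group has 3 libraries, lettered A, B and C, and where separate cultures are not stated the spread between them may be technical.

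Sre1 belongs to the sterol regulatory element-binding proteins, transcription factors that are held in membranes and released by cleavage when sterols are low, after which their N-terminal part enters the nucleus and activates genes of sterol synthesis. CYP61 encodes the C-22 sterol desaturase, which acts late in ergosterol synthesis, so its interruption alters the sterols of the cell. In growing yeasts the most abundant messenger RNAs are usually those of ribosomal proteins, translation factors and central carbon metabolism, and genes of stable level are used as references to which other transcripts are scaled. The count tables identify genes by number and contig only. No role is therefore given to any of the window genes, SRE1 and CYP61 could not be looked up to check the labels, and no sequence is shown. Gene lengths were not used here, so CPM values rank genes by reads and not by transcripts, and levels of different genes are not compared.

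Libraries held 9300589 to 20663214 counts. The lowest count of any window gene in any library was 2264, where the 95% Poisson counting error is 4.21%. That error, which covers sampling of reads only, is small beside most differences described, though not beside those between the closest single libraries. A bulk library cannot tell fewer cells from less RNA per cell, and a CPM value is a share of its library. Per the file headers, reads were paired and trimmed in the tables of the 4 groups of the rule, while those headers lack both words for sre1- and wild type (Ne). The 12 libraries that chose the window genes therefore all belong to one set of count tables and the other 6 to another. In both wild type (Ne) and sre1-, library C stood apart from A and B, with a mean chi-square per gene of 193 and 322 between C and the others in wild type (Ne) against 56.1 between A and B, and of 179 and 184 against 17.2 in sre1-. This was not particular to these 2 groups. Library C was also the farthest in cyp61- (139 and 204 against 93.5) and in the tagged strain (106 and 119 against 53.4). In wild type (N) it was library A (61.0 and 66.4 against 21.9), and in the double mutant B and C were farthest apart (179).

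The window was no more common among abundant genes than among genes in general. Of 6153 genes with a mean of at least 1 CPM, 46.4% met the same 0.6 window in all 3 strains, beside 42.7% of the 300 and 51.0% of the next 300 genes by rank. These shares restate the choice and carry no test. The window genes were spread over the 300, with 15 in the first 50 ranks, 25 in the next 50, 50 in the next 100 and 38 in the last 100, and their mean in wild type (N) ran from 523 to 12702 CPM with a median of 1007 CPM. The strain farthest from wild type (N) was the tagged strain for 55 of them, cyp61- for 45 and the double mutant for 28. For 24 of them no strain differed by more than 0.2, and for 56 none by more than 0.3. Among the other 172 genes, 142 were outside the window in the tagged strain, 104 in cyp61- and 30 in the double mutant, and 56 of the 142 were outside in the tagged strain only.

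Just inside the window lay g1266 and g867, both on contig 3. Gene g1266 had 1376 ± 103 CPM in wild type (N) and 906 ± 20.2 CPM in the tagged strain (SD, n = 3), a difference of -0.60 on the log2(CPM + 1) scale. Gene g867 had 949.7 ± 50.7 CPM in wild type (N) and 634 ± 115 CPM in the double mutant, also -0.60. Just outside lay g5821 on contig 6, with 1934 ± 20.4 CPM in wild type (N) and 2982 ± 609 CPM in the tagged strain, a difference of 0.605, and g1795 on contig 5, with 739 ± 71.2 CPM and 1131 ± 147 CPM, a difference of 0.609.

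The window gene with the most counts was g4731 on contig 4, ranked 5th in wild type (N). Its libraries A, B and C read 9863, 13022 and 15221 CPM in wild type (N), 18563, 17949 and 12726 CPM in cyp61-, 15949.6, 13971 and 14315 CPM in the double mutant and, in the tagged strain, 13569.7, 15413 and 8768 CPM. In the libraries the rule did not use it read 18885, 16028 and 23450.1 CPM in wild type (Ne) and, in sre1-, 19050.1, 16158 and 15820.1 CPM. The 4 groups of the rule overlapped one another, while all 6 of the other libraries lay above the 3 of wild type (N). Gene g1623 on contig 5, ranked 8th, read 8441, 11506 and 12231 CPM in wild type (N), 7470.3, 8899 and 6931 CPM in cyp61-, 9269.6, 11602 and 9140.4 CPM in the double mutant. Its tagged-strain libraries read 6414, 8246 and 7090.1 CPM, with 7655, 6691 and 5491 CPM in wild type (Ne) and, in sre1-, 8490.3, 7549 and 5239.6 CPM. All libraries of the tagged strain lay below those of wild type (N), at -0.55 on the log2(CPM + 1) scale. Those of wild type (Ne) did so by CPM only, since its difference of -0.69 became -0.26 with TMM scaling, with overlap.

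Gene g990 on contig 3 was narrow in wild type (N), at 7637, 7779 and 8001 CPM. It had 8746 ± 1637 CPM in cyp61-, 6805 ± 965 CPM in the double mutant and, in the tagged strain, 8836 ± 1174 CPM, against 4811 ± 642 CPM in wild type (Ne) and, in sre1-, 4325 ± 221 CPM (SD, n = 3). By CPM the 6 libraries outside the rule lay below all 12 inside it, but with TMM scaling the difference from wild type (N) shrank from -0.71 to -0.27 in wild type (Ne) and from -0.85 to -0.51 in sre1-, inside the window, and the libraries of wild type (Ne) and wild type (N) overlapped. Gene g667 on contig 1 ranged from 5407 ± 1595 CPM in cyp61- to 9149 ± 583 CPM in the double mutant, with 7215 ± 1711 CPM in wild type (N). It was 8187 ± 1062 CPM in wild type (Ne) and, in sre1-, 6119.5 ± 865 CPM, and by CPM both overlapped wild type (N), with every sre1- library below every one of wild type (Ne). With TMM scaling the difference of g667 from wild type (N) went from 0.20 to 0.64 in wild type (Ne) and from -0.22 to 0.12 in sre1-. Gene g2354 on contig 8 met the window with widely scattered libraries, from 3119 CPM in cyp61- B to 7606 CPM in wild type (N) A within the rule and up to 13737 CPM in wild type (Ne) B.

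Together the window genes took a nearly constant share of the counts in the groups that chose them, and a larger one elsewhere. Their share was 18.8%, 19.4% and 20.2% in the A, B and C libraries of wild type (N). It was 20.2%, 20.2% and 20.1% in cyp61-, 19.7%, 20.9% and 19.0% in the double mutant, and 19.3%, 20.1% and 19.6% in the tagged strain. In wild type (Ne) it was 24.0%, 23.8% and 27.1%, and in sre1- 25.7%, 24.4% and 27.0%. Every library of these last 2 groups lay above every library of the other 4, and without their C libraries their means were 23.9% and 25.0%. The other 172 genes are by the rule those that left the window. In the groups of the rule, the even share of the window genes and the less even one of these restate that choice. The share of the 172 was 37.2% ± 0.894 in wild type (N) and 38.4% ± 3.61 in the double mutant. In cyp61- it was 30.8% ± 3.45 and in the tagged strain 23.9% ± 0.913 (SD, n = 3). It was 32.7% ± 1.96 in wild type (Ne) and 30.8% ± 2.11 in sre1-. The 10 window genes with the most counts made up 33.7% of the counts of all 128 in wild type (N).

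**Figure D1:**
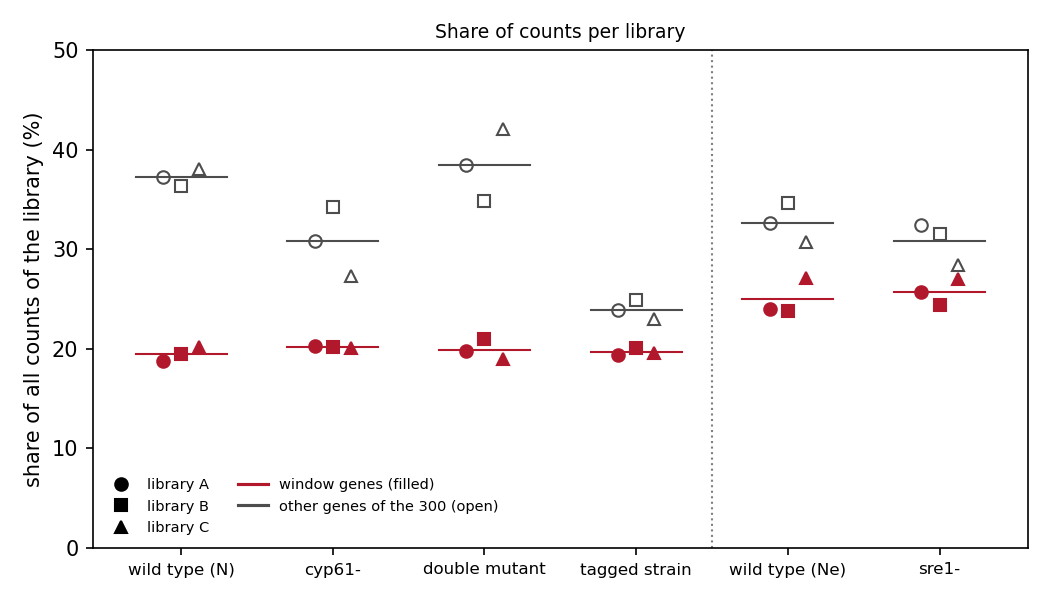
Share of all counts of a library (vertical axis, percent) taken by the 128 window genes (filled) and by the other 172 of the 300 genes with the most counts in wild type (N) (open), for the A, B and C libraries of each group, with a line at the group mean. Left of the dotted line, in the groups used to choose them, the window genes hold 18.8% to 20.9%, and right of it 23.8% to 27.1%.

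Replicate libraries of the window genes were closest in wild type (N). The SD of log2(CPM + 1) over 3 libraries had a median over the 128 genes of 0.0846 in wild type (N), 0.125 in cyp61-, 0.179 in the tagged strain and 0.206 in the double mutant. In the groups the rule did not use it was 0.166 in sre1- and 0.240 in wild type (Ne). The other 172 genes had medians of 0.145 in wild type (N), 0.279 in sre1- and 0.329 in wild type (Ne). In the same order the 6153 genes had 0.144, 0.244 and 0.265. In the tagged strain the other 172 had 0.270 and the 6153 genes 0.177, so window genes were no closer there than genes in general. In the double mutant these medians were 0.231 and 0.224, and in cyp61- 0.244 and 0.177. In sre1-, 72 of the 128 genes had an SD under 0.2, beside 38.8% of the 6153 genes, and in wild type (Ne) 50 of 128, beside 35.8%.

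By CPM, the window genes lay within 0.6 of wild type (N) in wild type (Ne) and sre1- about as often as genes in general. Of the 128, 66 did in wild type (Ne), beside 49.8% of the 6153 genes, 64 in sre1-, beside 53.2%, and 60 in both, beside 45.0%. With TMM scaling they left the window more often than genes in general. In wild type (Ne) 82 of the 128 were then beyond 0.6, where 21.1% of all genes were higher and 20.8% lower. In sre1- 76 were, where 20.7% of all genes were higher and 20.2% lower. The CPM shares by direction, which carry no test, were less alike. In wild type (Ne), 48 were higher by more than 0.6 (37.5%), where 10.0% of the 6153 genes were, and 14 were lower by more than 0.6 (10.9%), where 40.1% were. In sre1-, 50 were higher, beside 11.4% of all genes, and 14 were lower, beside 35.4%. The median difference from wild type (N) over the window genes was 0.34 in wild type (Ne) and 0.37 in sre1-, while over the 6153 genes it was -0.42 and -0.34. Relative to that shift of all genes, the medians of the window genes were 0.76 and 0.71. Among the other 172 genes, 34 were higher and 64 lower in wild type (Ne), and 38 and 66 in sre1-. Both comparisons share the wild type (N) libraries, which also chose the genes, so they are not independent of each other and no test is given.

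**Figure D2:**
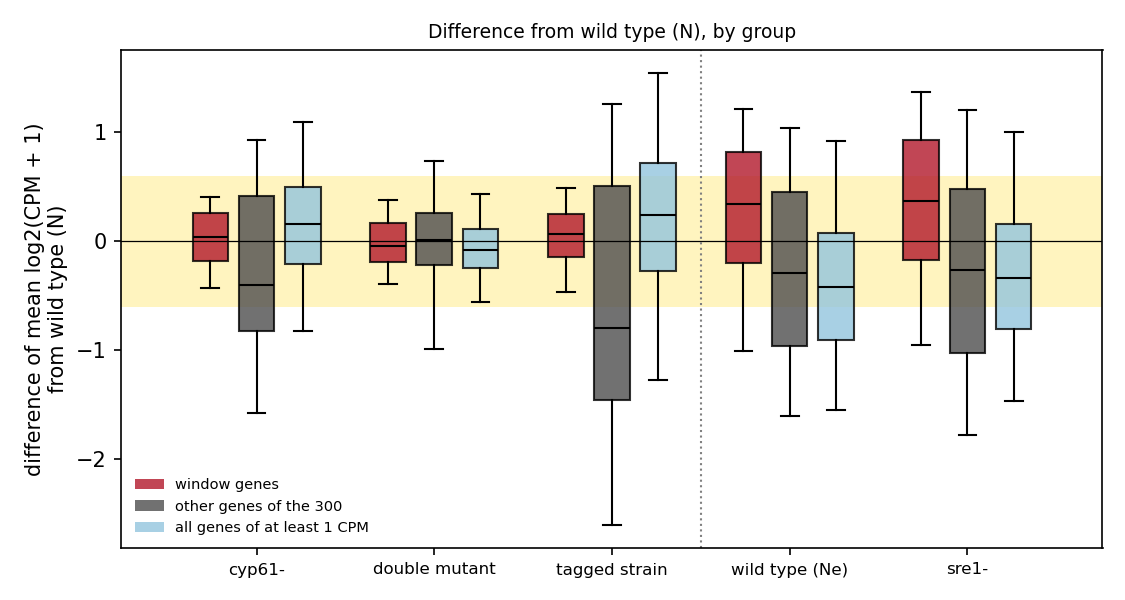
Difference of mean log2(CPM + 1) from wild type (N) (vertical axis) in the 5 other groups, for the 128 window genes, the other 172 of the 300 and the 6153 genes of at least 1 CPM; boxes span the quartiles with a line at the median, whiskers the 5th to 95th percentile, and the yellow band is the window of 0.6. The window genes lie inside the band in the 3 groups left of the dotted line because the rule put them there, and their medians are 0.34 and 0.37 in the 2 groups right of it.

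The libraries of wild type (Ne) and wild type (N) did not overlap for 92 of the 128 window genes (71.9%), a share near the 67.3% of all 6153 genes. In wild type (Ne), 67 window genes had all 3 libraries above all 3 of wild type (N), where 15.0% of the 6153 genes did, and 25 had all 3 below, where 52.3% did, while 36 overlapped. The split depends on the scaling. TMM factors, which centre each library on the bulk of its genes, ran from 0.710 to 0.880 in wild type (Ne) and sre1-, from 0.989 to 1.09 in wild type (N) and from 1.22 to 1.28 in the tagged strain. With TMM scaling 91 window genes had all 3 wild type (Ne) libraries above wild type (N), beside 31.2% of all genes, and 9 had all 3 below, beside 31.3%. By more than 0.6, 75 were higher in wild type (Ne) with TMM, beside 21.1% of all genes, and 7 lower, beside 20.8%. In sre1- 69 were higher, beside 20.7%, and 7 lower, beside 20.2%. With DESeq2 size factors 75 were higher and 7 lower in wild type (Ne), the same counts as with TMM. The share over all genes was not counted with these size factors. In the tagged strain, TMM scaling moved the median of the window genes from 0.07 to -0.18, and the median of all genes there was 0.24 by CPM. By CPM, 112 of the 128 were also among the 300 genes with the most counts in wild type (Ne) and 114 in sre1-, against 122 and 120 of the other 172. The labels do not say how the 2 wild-type sets differ, so culture, library preparation and table processing cannot be told apart here, nor can strain from table set in sre1- against wild type (N).

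Individual window genes differed several-fold between the 2 wild-type sets. Gene g1958 on contig 5 read 554, 726 and 672 CPM in wild type (N) and stayed at 756 ± 151 CPM in cyp61-, 649 ± 201 CPM in the double mutant and, in the tagged strain, 847 ± 304 CPM. It read 3425, 2760.4 and 2342 CPM in wild type (Ne) and, in sre1-, 2860.3, 2786 and 1294 CPM, differences of 2.12 and 1.75 from wild type (N) on the log2(CPM + 1) scale. All 6 of these libraries were above the 12 others, with sre1- C the lowest. Gene g6004 on contig 6 read 561, 597 and 665 CPM in wild type (N) and 2015, 1903 and 2137 CPM in wild type (Ne), with 1890.0 ± 349.7 CPM in sre1-. Gene g4065 on contig 9 was narrow in 3 groups, at 775 ± 37.2 CPM in wild type (N), 2536 ± 186 CPM in wild type (Ne) and, in sre1-, 2628 ± 145 CPM. Its tagged-strain level of 1149.7 ± 71.8 CPM was close to the upper edge of the window.

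In the opposite direction, g2132 on contig 8 read 1139, 1252 and 1123 CPM in wild type (N), 369, 358 and 491 CPM in wild type (Ne) and, in sre1-, 438, 449 and 519 CPM, at -1.54 and -1.32 on the log2(CPM + 1) scale and -1.10 and -0.98 with TMM scaling. Its 6 libraries there lay below all 3 of wild type (N) with either scaling, and below all 12 of the rule by CPM only. Gene g3678 on contig 0 had 1437 ± 117 CPM in wild type (N), 579 ± 139 CPM in wild type (Ne) and, in sre1-, 658 ± 44.0 CPM. It was also -0.54 in the double mutant and -0.55 in the tagged strain, near the lower edge of the window. Gene g1794 on contig 5 had 606 ± 19.4 CPM in wild type (N) and 229.7 ± 22.6 CPM in sre1-, and g4214 on contig 9 had 884 ± 135 CPM and 345 ± 58.0 CPM. Both stayed below wild type (N) with TMM scaling, at -1.06 and -1.02 in sre1-.

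**Figure D3:**
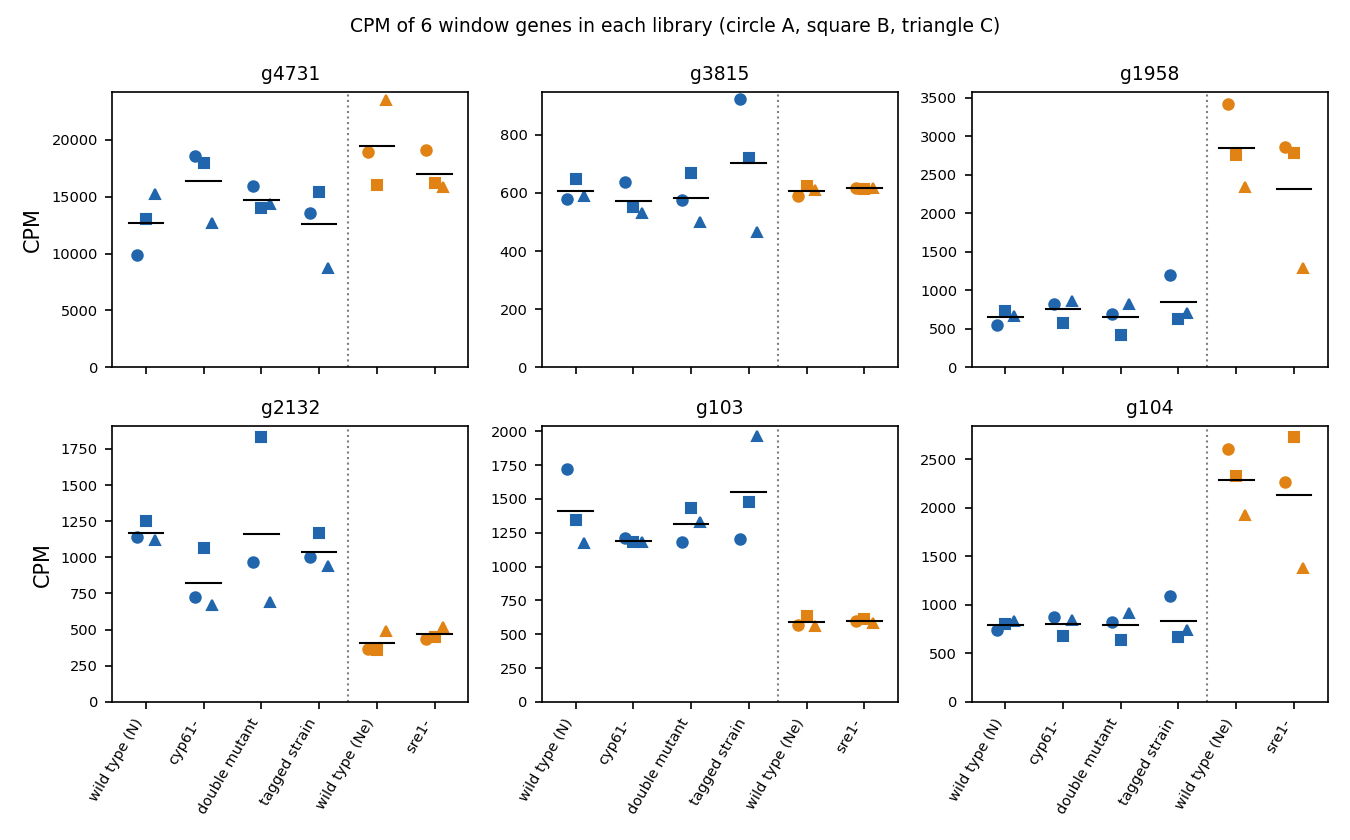
CPM (vertical axis, linear from 0) of 6 window genes in the A (circle), B (square) and C (triangle) library of each group, with a line at the group mean; blue marks the groups of the rule and orange the 2 others. By CPM, g1958 and g104 sit higher and g2132 and g103 lower in all 6 orange libraries than in any blue one, which for g2132 does not hold with TMM scaling, while the groups of g3815 and of g4731 overlap across the colours by CPM.

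The window genes lay on 11 of the 22 contigs, the same number that held any of the 300, with 24 on contig 0, 19 on contig 1, 15 each on contigs 2, 3 and 4, and 4 on contig 10. The contigs without any are small, with 2 to 14 genes each. On the others, window genes were 1.00% (contig 6) to 2.68% (contig 0) of the genes counted. By gene number, 20 of them had another window gene as a direct neighbour, in 9 runs, of which the longest held 3 genes. Genes g102, g103 and g104 on contig 1 form 1 such run and were all inside the window. Gene g102 had 1242 ± 33.8 CPM in wild type (N), 2108 ± 337 CPM in wild type (Ne) and, in sre1-, 2281 ± 293 CPM. Its neighbour g103 had 1413 ± 278 CPM, 589 ± 37.5 CPM and 598 ± 14.1 CPM in the same groups. The next gene, g104, had 794 ± 43.9 CPM, 2289 ± 342 CPM and 2129 ± 686 CPM. So g103 was lower and its neighbours on either side higher in the 6 libraries outside the rule, in each case with no overlap with wild type (N) by CPM or with TMM scaling.

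Genes g1591, g1592 and g1593 on contig 5 form the other run of 3. Gene g1592 had 722 ± 18.7 CPM in wild type (N), 1630.2 ± 275 CPM in wild type (Ne) and, in sre1-, 1763 ± 257 CPM, with no overlap. Gene g1591 had 890.2 ± 28.0 CPM, 1063 ± 187 CPM and 1074 ± 95.7 CPM, differences of 0.24 and 0.27 from wild type (N). With TMM scaling these differences were 0.679 and 0.609, outside the window. By CPM all 6 libraries of g1591 in wild type (Ne) and sre1- lay above those of wild type (N), though wild type (Ne) A only just. Gene g1593 had 775 ± 202 CPM, 872 ± 196 CPM and 1056 ± 158 CPM, and overlapped wild type (N) in wild type (Ne). No label or header says whether counting used strand, so overlapping or antisense neighbours may share reads.

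Deleting SRE1 in the wild-type background was the comparison that the choice of genes left untouched, since sre1- and wild type (Ne) took no part in the rule and lie in one set of count tables. No window gene passed the test. With edgeR's quasi-likelihood test on the 6 libraries and Benjamini-Hochberg adjustment over 6162 genes, 0 of 128 passed an adjusted p of 0.05, and 1 gene of all tested (0.0162%) did. The lowest edgeR adjusted p of a window gene was 0.9997, and 0 of 128 had an unadjusted p under 0.05, beside 101 of all 6162 genes. DESeq2 called 0 of the 128 and 14 genes in all. With the library letter as a replicate block, edgeR called 0 of the 128 and 20 genes in all (0.325%). In that blocked fit 3 of the 128 had an unadjusted p under 0.05, beside 502 of all 6162 genes. Library C deviated alike in both strains (correlation across all genes 0.67). Libraries A and B matched about as well across letters (0.64 and 0.33) as by letter (0.43 and 0.58). The fit without the block does not allow for such shared deviation. Its lack of low p-values therefore does not show that the window genes were unchanged. By CPM, 6 of the window genes had all 3 libraries of one strain above all 3 of the other, 3 in each direction. Of all genes 7.21% did, with uneven directions by CPM, sre1- being above in 380 and below in 64. The CPM median of the 6153 genes against wild type (N) was -0.34 in sre1- and -0.42 in wild type (Ne). With TMM scaling these medians were -0.013 and -0.009. In the edgeR fit, which uses TMM, 3096 fold changes of all genes were positive and 3066 negative.

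Fitted changes were small for most window genes. For 117 of the 128 (91.4%), the whole 95% confidence interval was inside 2-fold up or down, beside 80.1% of all genes tested. The other 11 were not bounded that closely. With the library letter as a replicate block, the interval was inside 2-fold for 125 of the 128. Without the block, log2 fold changes of the window genes had a median of -0.04 and ran from -0.68 to 0.44. Of these, 52 were positive and 76 negative. The median was 0.00 over all genes and -0.10 over the other 172. With library C of both strains left out, 111 genes passed in all and again 0 of the 128, of which 13 had an unadjusted p under 0.05, beside 13.8% of all genes in that fit. Without wild type (Ne) C alone, 6 genes passed in all and 0 of the 128, whose median became 0.15.

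**Figure D4:**
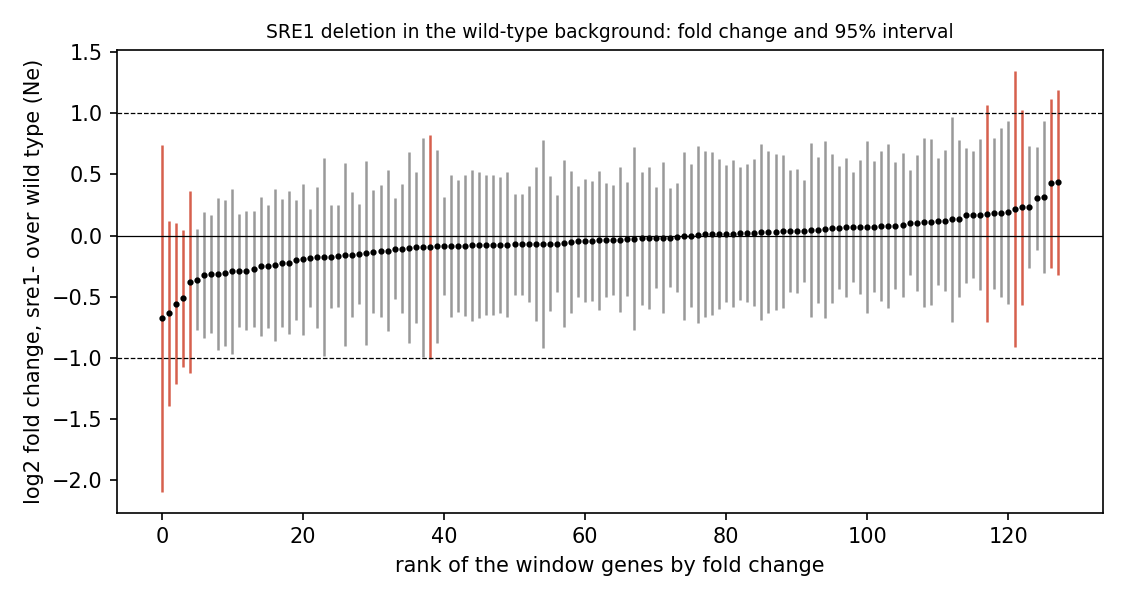
Log2 fold change of sre1- over wild type (Ne) (vertical axis, points) with its 95% confidence interval (lines) for the 128 window genes in order of fold change; dashed lines mark 2-fold. Grey intervals, 117 of them, lie within 2-fold, and the 11 red ones do not, the widest being that of g927.

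The window genes farthest from no change in that comparison had scattered libraries. Gene g927 on contig 3 read 1479.8, 1902 and 353 CPM in wild type (Ne) and, in sre1-, 892, 1204 and 344 CPM, a log2 fold change of -0.68 (SE 0.61, 95% interval -2.09 to 0.74). Its C library was the low one in both strains, and the A and B libraries of both exceeded the 649, 602 and 621 CPM of wild type (N). Gene g2891 on contig 7 read 2268, 3579 and 1488 CPM in wild type (Ne) and, in sre1-, 1859, 1844 and 1259 CPM, a change of -0.64 (SE 0.32, 95% interval -1.39 to 0.12). The groups overlapped, and the low library was again C in each. On the positive side, g4046 on contig 9 read 1788, 1169 and 1764 CPM in wild type (Ne) and, in sre1-, 2928, 2433 and 1467 CPM, a change of 0.44 (SE 0.32, 95% interval -0.32 to 1.19). Gene g1266 read 1789, 2095 and 1874 CPM in wild type (Ne) and, in sre1-, 2224, 2159 and 3797 CPM, a change of 0.43 (SE 0.29, 95% interval -0.26 to 1.11). By CPM every sre1- library of g1266 lay above those of wild type (Ne), but only sre1- C far above.

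The window genes most even over the 6 libraries outside the rule were g3815, g3069 and g3266, all on contig 0. Gene g3815 read 589.9, 624 and 611 CPM in wild type (Ne). In sre1- it read 617, 612 and 618 CPM, against 579, 649 and 588 CPM in wild type (N). It was less even in the tagged strain, at 924, 721 and 465 CPM, and with TMM scaling it was 0.45 in wild type (Ne) and 0.37 in sre1- against wild type (N). Gene g3069 read 873, 817 and 815 CPM in wild type (Ne) and, in sre1-, 780.4, 801 and 819 CPM, all above its 612, 685 and 706 CPM in wild type (N). By CPM g3069 differed from wild type (N) by 0.32 and 0.26 in these groups. With TMM scaling the differences were 0.762 and 0.605, outside the window in both. Gene g3266 read 758, 742 and 702 CPM in wild type (Ne) and, in sre1-, 758, 755 and 692 CPM, all below its 837, 889.8 and 821 CPM in wild type (N), but with TMM scaling the order turned, to 0.23 and 0.13. Their log2 fold changes in sre1- against wild type (Ne) were -0.07 (SE 0.18, 95% interval -0.49 to 0.34), -0.15 (SE 0.17, 95% interval -0.56 to 0.26) and -0.09 (SE 0.17, 95% interval -0.48 to 0.31).

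Over all 18 libraries, the highest CPM of a window gene was 1.33 to 8.01 times its lowest, with a median of 2.50, and it was under 2-fold for 30 of the 128. The narrowest were g588 on contig 1, from 1107 to 1469 CPM, and g4729 on contig 4, from 673 to 897 CPM. These 2 were picked after their values were seen, and evenness by CPM is not evenness by every scaling: with TMM, g588 was 0.46 and g4729 0.59 in wild type (Ne) against wild type (N). Of the 60 window genes within 0.6 of wild type (N) in all 5 other groups by CPM, 28 were also within it in all 5 by TMM scaling, which kept 34 of the 128. The matching TMM share over all genes was not counted. With TMM 13 of the 128 were lower by more than 0.6 in the tagged strain and 4 in cyp61-. The 34 therefore also reflects the groups of the rule.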

How the data were processed

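RNA-seq gave total counts per gene for 6469 genes in 18 libraries, which the authors deposited without normalization, per the file headers. Reads were mapped to contigs of an assembly named QXden1.PacBioOnly, per the file headers. No label or header names the counting tool or the strand setting. Bowtie2 2.3.5.1, edgeR and DESeq2 are among the tools listed in the submitters' processing notes, which give no role for them. The columns of the wild type (Ne) table are headed 1AN, 1BN and 1CN, and were assigned to the Ne samples because their labels name that table. Library totals are given above. The 4 ChIP-exo peak tables name no gene and were not used.

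The genes, the tests and the rule for named genes were chosen with earlier results of these data known, and no gene list by function was run because identifiers carry no product. Named window genes are those with the most counts in wild type (N) (5), the smallest SD over wild type (Ne) and sre1- (3), the highest and lowest 2 in each comparison, those at the edge of the window and those in the longest runs of neighbours. CPM used the library total and a pseudocount of 1 CPM, with all genes of a mean of at least 1 CPM as background. For sre1- against wild type (Ne), edgeR 4.0.16 (R 4.3.3) used filterByExpr, TMM and a quasi-likelihood fit of the 6 libraries alone. The p-values were adjusted over all genes. The fit was first run on simulated counts drawn independently for each library. These held no deviation shared between libraries of the 2 strains, so the simulation did not check that setting. DESeq2 1.42.0 was an alternative. Intervals came from the fold change, its F statistic and its degrees of freedom. Same-letter libraries of the 2 groups deviated together (correlations across genes of 0.43, 0.58 and 0.67 for A, B and C), which by a limit of 0.1 set for this check makes the letter a block, although wild type (Ne) A followed sre1- B more closely (0.64). No pair of libraries of a group agreed within sampling noise.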

Additional observations from a re-analysis of the deposited data

How the results depend on the processing

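The number of window genes was 88 with a window of 0.4, 171 with 0.8, 90 among the 200 most abundant genes, 234 among 500, and 132 with TMM scaling, of which 111 were among the 128. Leaving out 1 library of the rule gave 120 to 134. Their share in wild type (N) was 18.2% with TMM, 12.3% with the window of 0.4, 26.6% with 0.8, 17.0% among 200 genes, 23.5% among 500, and 17.6% to 21.1% with 1 library left out. For sre1- against wild type (Ne), 14 genes passed with 1 fit of all 18 libraries, 14 with DESeq2, 20 with the replicate block, 111 without both C libraries and 0 to 6 without 1 library, where the 0 came with 54 to 118 genes at an unadjusted p under 0.05. None of the 128 window genes passed in any of these 12 alternatives, and 92 to 125 had their interval within 2-fold in the 11 that give one. The count of window genes beyond 0.6 in wild type (Ne) was 62 by CPM and 59 to 65 with 1 library left out. It was 82 with TMM scaling and with DESeq2 size factors. Among the 6153 genes 50.2% were beyond 0.6 by CPM, while with TMM 21.1% were higher and 20.8% lower. Whether the window genes stood near genes in general therefore depended on the scaling. With a counting error of at most 4.21%, the spread between 3 libraries a group limits these comparisons more than depth does.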
